A study of Homo sapiens with 12 samples.

Results

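The comparison described here set both hHSS1-overexpressing clones of A172 against the untransfected parent cells. A172 is an adherent line established from a human glioblastoma. Transcripts were read with GeneChip Human Gene 1.0 ST arrays, which carry probes along most exons of a gene. By their titles, 6 of the 12 arrays of the series carried the clones, 3 from clone 7 and 3 from clone 8, and 3 carried wild-type A172, so that 9 of 12 arrays entered the difference. Wild-type cells had received no vector. Clones 7 and 8 had been stably transfected with pcDNA3.1 carrying hHSS1 with a 6-His tag at its C-terminal end, and stable lines were kept in the antibiotic G-418. The remaining 3 arrays, from a mock line holding the empty pcDNA3.1 vector, entered the fit for the estimate of the spread and are given beside the results. All cultures were harvested after 4 days of exponential growth, as plates seeded in parallel. Each clone, the mock line and the parent was 1 line, so that p-values measured the spread between plates and not between independently made lines. Since wild-type cells were neither transfected, selected nor cloned, hHSS1 and these 3 steps cannot be told apart in this comparison.

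hHSS1 is now named EMC10. Its product is a subunit of the endoplasmic reticulum membrane protein complex (EMC), which helps to insert membrane proteins with several or weakly hydrophobic spans, such as many receptors and transporters, into the membrane. A splice form of the gene gives a secreted protein. Overexpression of hHSS1 slows the growth of glioma cells in culture, which was the reason for profiling these lines.

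All 18417 genes with a single symbol in the platform annotation were compared, with each clone given equal weight. Levels are log2 values, so that 1 unit is a doubling. A gene was called higher or lower at an adjusted p below 0.05 (limma, Benjamini-Hochberg over all genes) with a difference of at least 1.5-fold. Medians of the arrays ran from 8.603 to 8.671, and the lower quartile of all values was 7.047. Levels below that quartile could not be told from background, and folds that reach it are uncertain in size. The glial filament gene GFAP was at 8.65 in wild-type, near the array median, while the intermediate filament gene VIM was at 13.7. Of 15 astroglial markers, 0 were called between the clones and wild-type, and the same held for 11 oligodendroglial, 15 neuronal and 15 epithelial markers. Among 17 leukocyte markers 1 was called, the phosphatase gene PTPRC, which was dim (log2 -0.63 ± 0.16 SE, adjusted p = 0.0277). It kept no call without wild-type replicate 2 or 3 or with 1 of 3 clone arrays left out (smallest difference log2 -0.53). The call was lost in the fit of the 9 clone and wild-type arrays alone too. Among 13 endothelial markers TEK was the single call, to be set beside 1.58% called over all genes.

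Before any result, 2 clone arrays went against their labels. The array labelled clone 7 replicate 3 resembled the arrays labelled clone 8 replicates 1 and 2, and the array labelled clone 8 replicate 3 resembled those labelled clone 7 replicates 1 and 2. After each gene was centred on its mean over the 12 arrays, the array labelled clone 7 replicate 3 correlated with clone 8 replicate 1 at r = 0.48 and with clone 8 replicate 2 at r = 0.77, against r = -0.33 and -0.34 with the other clone 7 arrays (across genes, which are not independent replicates). The array labelled clone 8 replicate 3 correlated with clone 7 replicates 1 and 2 at r = 0.64 and 0.56, against r = 0.09 and -0.40 with the other clone 8 arrays. By count, 25 genes differed at least 1.5-fold between clone 7 replicate 3 and clone 8 replicate 2, and 566 between clone 7 replicate 3 and clone 7 replicate 1.

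Single genes showed the same pattern. The chemokine gene CCL2 was at 12.03, 12.004 and 8.32 on the arrays labelled clone 7, at 8.36, 8.49 and 12.17 on those labelled clone 8, and at 11.84, 11.95 and 11.82 in wild-type. TDO2, which encodes the tryptophan-degrading dioxygenase, was at 12.23, 11.91 and 8.92, then at 8.71, 9.30 and 12.05, against 8.49 to 8.54 in wild-type. On both genes the arrays numbered 3 carried the level of the other clone. A gap of at least 1 log2 unit separated clone 7 replicates 1 and 2 with clone 8 replicate 3 from the other 3 clone arrays for 79 genes, and 0 genes had such a gap between the arrays as labelled. These genes were named after their values were seen. No array was moved to another group, and whether labels were exchanged was not tested.

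**Figure D1:**
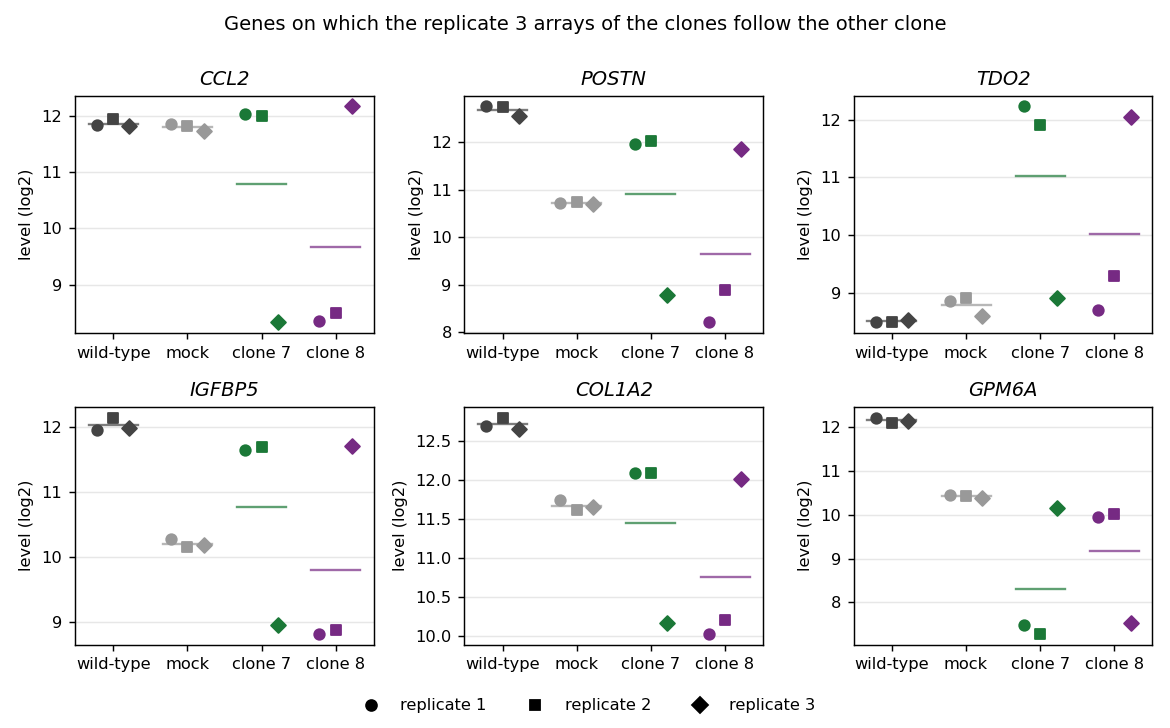
Log2 level (vertical axis) of 6 genes on each of the 12 arrays by labelled group (horizontal axis), 1 point for each array, the marker shape giving the replicate number and the line the group mean. On every panel the replicate 3 arrays of the clones (diamonds) lie with the other clone, as for CCL2 at 8.32 in clone 7 and 12.17 in clone 8. Wild-type arrays lie close to each other, and so do mock arrays. Mock lies below wild-type for POSTN (mean 10.73 against 12.69), IGFBP5, COL1A2 and GPM6A.

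The mean of both clones against wild-type gave each of the 6 arrays the same weight and did not depend on which clone those 2 arrays belonged to, but the spread within a labelled clone did. The SD of the median gene was 0.0712 over the 3 wild-type arrays, 0.0824 for clone 7 and 0.1439 for clone 8 (log2). Without replicate 3 it was 0.0396 for clone 7 and 0.1216 for clone 8. Genes on which the 6 clone arrays split into 2 levels, such as CCL2 (log2 -1.64 ± 0.87, adjusted p = 0.266), TDO2 (log2 2.01 ± 0.73, adjusted p = 0.109) and the matrix gene POSTN (log2 -2.40 ± 0.77, adjusted p = 0.072), missed the call. All 3 were called once both arrays were left out, at log2 -1.65, 2.03 and -2.42. In that fit CCL2 differed from wild-type by log2 0.15 in clone 7, not called, and by log2 -3.45 in clone 8. TDO2 differed by log2 3.56 in clone 7 and by log2 0.49, not called, in clone 8. POSTN was called lower in each clone, at log2 -0.70 and -4.14. Since the arrays were left out for such values, these calls are a description and not a test.

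Between both clones and wild-type, 291 of 18417 genes were called, 1.58% of those tested. Of these, 167 were higher (0.907%) and 124 lower (0.673%), and 75 differed at least 2-fold, 45 of them higher and 30 lower. At an adjusted p below 0.05 regardless of fold, 853 genes were higher (4.63%) and 979 lower (5.32%). The median difference over all genes was log2 0.025. The clone arrays and the wild-type arrays did not overlap for 283 of the 291. The calls came from the same arrays, so that count is a description and no separate support. Its share over all genes was not counted.

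The calls in each clone alone rest on the doubted labels. Clone 7 as labelled had 247 genes called (1.34%), 167 higher and 80 lower, and clone 8 had 306 (1.66%), 141 higher and 165 lower. Without the array labelled clone 7 replicate 3 the first count was 388, and without the array labelled clone 8 replicate 3 the second was 489. In both clones and in each alone, 183 genes were called in the same direction (0.994%), 110 higher and 73 lower. Without both doubted arrays, 135 of these 183 were called in both clones, and 22 of all genes were called in opposite directions in the 2 clones. Clone 8 against clone 7 gave 0 calls in limma, with 1328 genes at an unadjusted p below 0.05 and 0 at any of the alternatives that kept at least 1 of those 2 arrays.

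Without both arrays, a choice made after seeing the data, 347 genes were called between the clones and wild-type (1.88%), 194 higher and 153 lower. Of the 291, 277 were called again in the same direction, 14 were not and 70 were added. In that fit clone 7 had 489 calls, clone 8 had 554, and 617 genes passed the same limits between the clones. Since the arrays were left out for their values, that last count is a description and not a test.

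**Figure D2:**
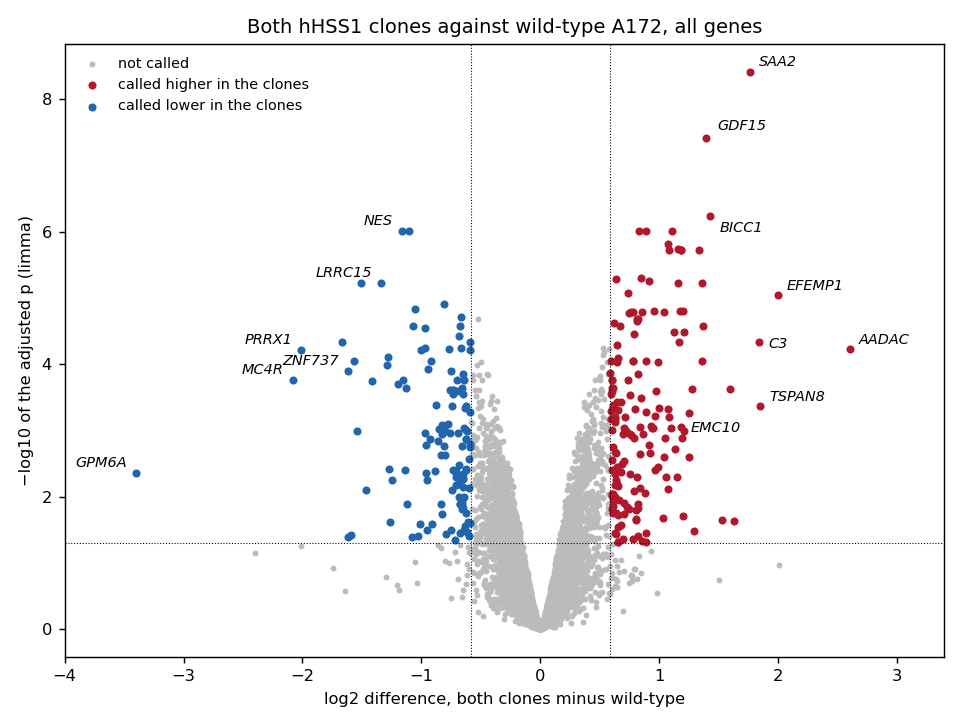
Log2 difference between both clones and wild-type (horizontal axis) against −log10 of limma's adjusted p (vertical axis), a point per gene, with dotted lines at 1.5-fold and at an adjusted p of 0.05. The 167 genes called higher are red and the 124 called lower are blue, and the grey points far from 0 below the line include genes split between the clones.

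hHSS1 itself (EMC10, probe set 8030706, chromosome 19) was at 11.13, 10.43 and 10.69 in wild-type. It was at 11.57, 11.72 and 12.30 on the arrays labelled clone 7 and at 12.13, 12.18 and 11.75 on those labelled clone 8. No clone array overlapped with wild-type, and the clones rose 2.28-fold over it (log2 1.19 ± 0.18 SE, limma adjusted p = 0.0013). The mock line, at 9.20, 9.33 and 9.51, lay below both. Of the other 9 EMC subunits measured, 0 were called, and their differences lay between log2 -0.17 and 0.12. EMC6, at log2 -0.16 ± 0.10 in the fit of all arrays, had an adjusted p of 0.0478 without both doubted arrays. The probe set reads transcripts of the vector and of the cell's own gene together, and 0 of 31 genes for endoplasmic reticulum stress and degradation were called. Of those 31, 4 were higher at an adjusted p below 0.05, among them HERPUD1, which acts in degradation at that membrane (log2 0.31 ± 0.05).

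The largest rise that both clones shared was in AADAC, an esterase of the endoplasmic reticulum that splits acetyl groups from drugs and lipids. It was at 6.41, 7.05 and 7.04 in wild-type, near or below the lower quartile, and at 8.77, 9.46 and 9.99 as lowest, median and highest of the 6 clone arrays (6.09-fold, log2 2.61 ± 0.25, adjusted p = 5.96e-05). AADAC was at 7.70 to 7.82 in mock. TSPAN8, a tetraspanin linked to tumour cell migration, rose 3.6-fold from a similarly dim start (log2 1.85 ± 0.23), with 6.92 to 7.19 in wild-type and 8.08 to 9.77 in the clones. EFEMP1, a fibulin of the extracellular matrix that glioma cells secrete, rose 4.00-fold (log2 2.00 ± 0.15), from 8.77, 8.94 and 8.68 to between 10.31 and 11.15. Its mock arrays, at 10.51 to 10.66, lay in the range of the clones.

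Further large rises were in genes of several kinds. The growth and differentiation factor GDF15, a stress cytokine, was at 10.90, 11.01 and 11.06 in wild-type and at 12.34 to 12.46 in the clones, with its 6 clone arrays close together (log2 1.40 ± 0.05, adjusted p = 3.79e-08). The receptor tyrosine kinase ROR1 rose by log2 1.60 ± 0.18, and CD70, a ligand of the tumour necrosis factor family, by log2 1.37 ± 0.12. TGM2, which cross-links proteins, rose by log2 1.33 ± 0.08. In mock these 4 genes were above wild-type too, by log2 0.92, 1.14, 1.10 and 1.17. BICC1, an RNA-binding protein, was closer to wild-type in mock, at log2 0.37, and rose by log2 1.43 ± 0.07 in the clones. CDH10, a neural cadherin, rose by log2 1.28 ± 0.15 from a dim 6.92 to 7.12. The matrix-associated TINAGL1 (log2 1.21 ± 0.17), the LIM domain gene FHL2 (log2 1.26 ± 0.21) and the smooth muscle actin gene ACTA2 (log2 1.36 ± 0.14) showed the split of the doubted arrays, as did ROR1, CD70 and CDH10: on each, clone 7 replicate 3 lay with clone 8 replicates 1 and 2. Genes named as split are examples. The same split was seen on AADAC, TSPAN8, EFEMP1 and TGM2 above. Below, it was seen on MC4R, CHRM3, NLGN1, PRRX1, FAS, PCDH18, LIFR, C3 and others. PKD1L1-AS1, an RNA antisense to PKD1L1, rose by log2 1.36 ± 0.10 but was higher still in mock, at 10.30 to 10.44 against 9.07 to 9.67 in the clones.

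The largest fall was in GPM6A, a neuronal surface glycoprotein that promotes filopodia. It was at 12.21, 12.09 and 12.13 in wild-type, at 7.50, 7.29 and 10.16 on the arrays labelled clone 7 and at 9.94, 10.02 and 7.53 on those labelled clone 8 (log2 -3.40 ± 0.61, adjusted p = 0.0044). All 6 clone arrays and the mock arrays, at 10.38 to 10.45, lay below wild-type, and the clone arrays formed 2 levels that crossed the labels. The melanocortin receptor MC4R fell by log2 2.08 ± 0.23, and its mock arrays, at 8.35 to 8.55, lay inside the clone range of 7.835 to 9.004. CHRM3, a muscarinic acetylcholine receptor, fell by log2 1.56 ± 0.16, and the synaptic adhesion gene NLGN1 by log2 1.54 ± 0.22. LIN7A, a scaffold of synapses and epithelial junctions, fell by log2 1.51 ± 0.11, with clone arrays at 6.85 to 7.42, around the lower quartile. Mock was below wild-type on both, by log2 -1.44 for NLGN1, near the clones, and by log2 -1.83 for LIN7A, lower than the clone mean. NES, the intermediate filament of neural progenitors, was at 9.98, 10.11 and 10.16 in wild-type and at 8.74 to 9.03 in the clones (log2 -1.17 ± 0.06, adjusted p = 9.75e-07), with mock between them at 9.60 to 9.69.

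PRRX1, ADAMTS6 and LRRC15 were also among the largest falls. PRRX1, a homeobox factor of mesenchymal cells, was at 11.73, 11.83 and 11.91 in wild-type and at 9.28, 9.86 and 10.24 as lowest, median and highest in the clones (log2 -2.01 ± 0.19, adjusted p = 6.07e-05). ADAMTS6, a secreted metalloproteinase, fell by log2 1.42 ± 0.16. LRRC15, a leucine-rich membrane protein of mesenchymal tumours, fell by log2 1.34 ± 0.10 from one of the higher levels, 13.14 to 13.18. In each of these 3 the mock arrays lay between wild-type and the clones.

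The further falls were in genes of other kinds. B3GALT1, a galactosyltransferase, fell by log2 1.66 ± 0.15, and the zinc finger gene ZNF737 by log2 1.62 ± 0.17, to between 5.80 and 6.64, below the lower quartile. Mock was lower still for ZNF737, at 5.42 to 5.65, and for B3GALT1 it lay between wild-type and the clones, at log2 -0.37 from wild-type. FSTL5, a secreted follistatin-like protein, fell by log2 1.24 ± 0.23 and XIRP2, an actin-binding protein of muscle, by log2 1.20 ± 0.14. The XIRP2 clone arrays, at 6.22 to 7.045, lay below the lower quartile, and those of FSTL5, at 6.44 to 7.64, reached below it. The study checked XIRP2 by quantitative RT-PCR against the empty-vector line. It reported a discrepancy with the array for both clones. For FSTL5 and XIRP2 mock lay near wild-type or on its other side, at log2 -0.06 and 0.42. RNU4-1 and RNU4-2, both genes of the U4 spliceosomal RNA, fell by log2 1.28 each (± 0.13 and ± 0.23). They are near-identical copies, so that their probes may share signal and their values are uncertain.

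**Figure D3:**
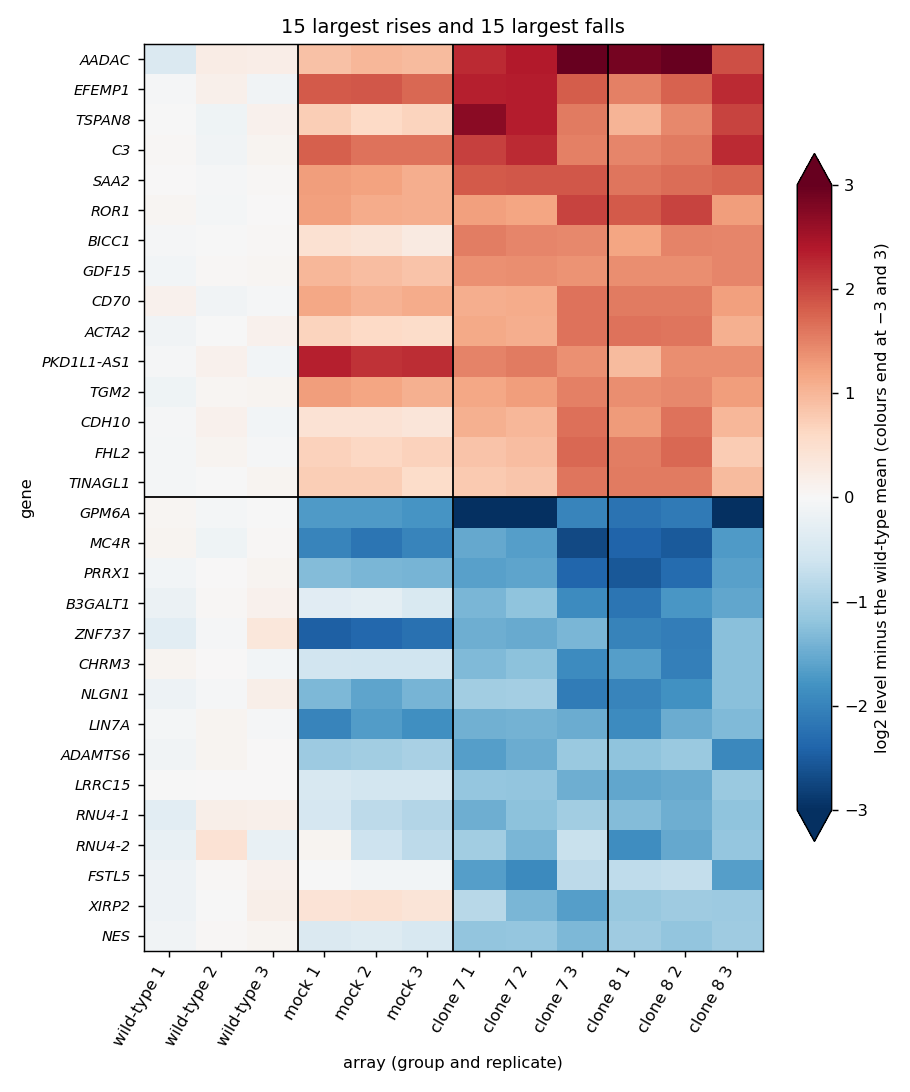
Log2 level minus the wild-type mean (colour) of the 15 genes with the largest rises and the 15 with the largest falls called in both clones and in each clone alone, on each of the 12 arrays (columns). The clones stand on 1 side of wild-type on every row, mock lies between them or with the clones for most genes, and the array columns of clone 7 replicate 3 and clone 8 replicate 3 follow the other clone on rows such as GPM6A and FHL2.

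Other genes had a smaller spread among the 6 clone arrays, though the doubted arrays still followed the other clone on EDIL3 and CLDN1. EDIL3, an extracellular ligand of integrins that promotes vessel growth, was at 11.22, 11.17 and 11.19 in wild-type, at 12.54, 12.51 and 12.28 in clone 7 and at 12.16, 12.33 and 12.47 in clone 8 (2.28-fold, log2 1.19 ± 0.07, adjusted p = 1.91e-06). Mock, at 10.96 to 11.03, lay just below wild-type. CLDN1, a tight junction protein, rose 2.3-fold, from 10.16 to 10.34 in wild-type to 11.26 to 11.74 in the clones (log2 1.20 ± 0.10), with mock at 10.28 to 10.37. For these 2 genes, wild-type and mock arrays overlapped or lay within 0.3 log2 units and the clones stood apart from both. RGS16, which restrains G-protein signalling, showed the same in the other direction: it fell by log2 0.999 ± 0.096, with 10.62 to 11.01 in wild-type, 10.76 to 10.96 in mock and 9.58 to 9.90 in the clones.

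**Figure D4:**
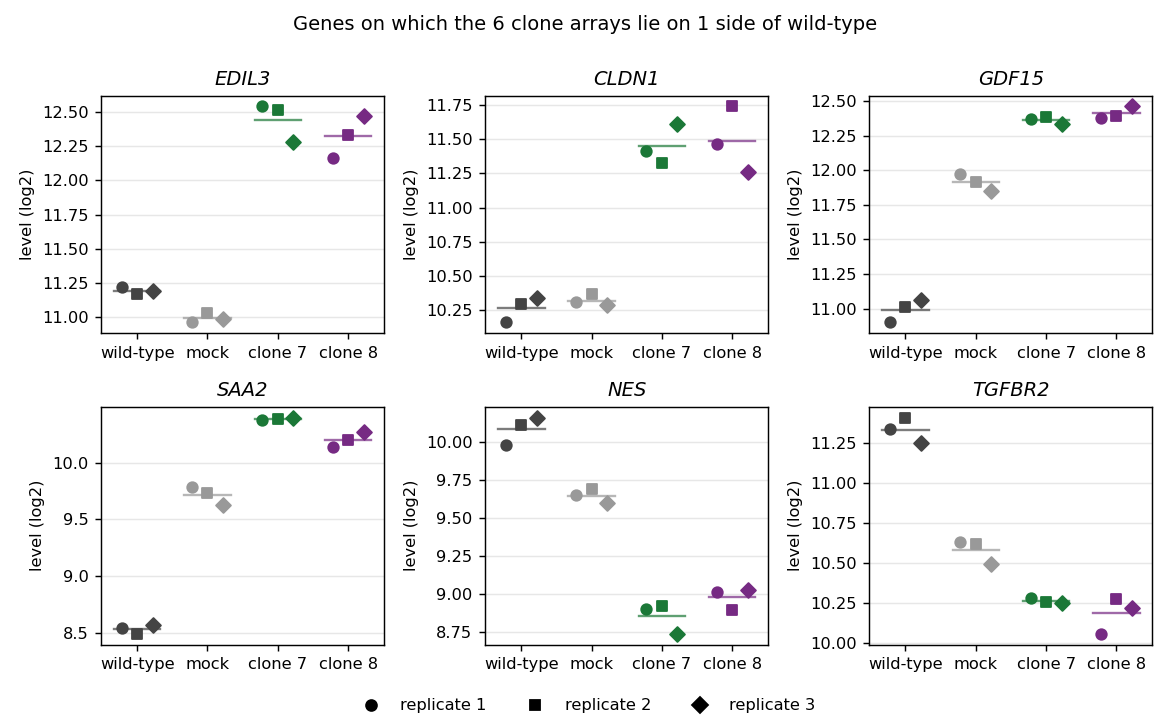
Log2 level (vertical axis) of 6 genes on each of the 12 arrays by labelled group (horizontal axis), 1 point for each array, the marker shape giving the replicate number and the line the group mean. The clone arrays lie on 1 side of wild-type on each panel, and mock lies near wild-type for EDIL3 and CLDN1 and between wild-type and the clones for GDF15, SAA2, NES and TGFBR2.

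Targets of p53, the factor that halts the cell cycle or starts cell death after DNA damage, were higher in the clones as a group. Of 24 measured, 7 rose and 0 fell, against 0.907% higher and 0.673% lower over all genes, and 17 were higher at an adjusted p below 0.05 regardless of fold. Their median difference was log2 0.45, beside 0.025 for all genes. This list, like the others, was chosen with earlier results of these data known, so that its counts are a description. After GDF15 came FAS, a death receptor, at 9.37, 9.48 and 9.64 in wild-type and 10.28 to 10.95 in the clones (log2 1.08 ± 0.14), and ZMAT3, an RNA-binding p53 target, at 10.96 to 11.06 against 11.76 to 12.01 (log2 0.85 ± 0.07). TP53INP1, which promotes p53-dependent death and autophagy, rose by log2 0.79 ± 0.07 and SESN1, a sestrin that dampens mTORC1 signalling, by log2 0.75 ± 0.11. The clone and wild-type arrays did not overlap for any of these 5 genes, as for 283 of the 291 called genes. CDKN1A, the inhibitor of cyclin-dependent kinases, was at 11.03 to 11.12 in wild-type and 11.51 to 11.82 in the clones, and its rise (log2 0.61 ± 0.08) lay at the fold limit, as did that of TIGAR, a phosphatase that slows glycolysis (log2 0.61 ± 0.11). Below 1.5-fold were CDKN1A without clone 7 replicate 3 or clone 8 replicate 1 (log2 0.57 at the lowest) and TIGAR without wild-type replicate 1, clone 7 replicate 3 or clone 8 replicate 2 (log2 0.54). Mock stood above wild-type on the list too, with a median of log2 0.20.

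Genes of cell division were lower, mostly by less than 1.5-fold. Of the mitosis and spindle list, each of 39 measured genes lay below 0, from log2 -0.66 to -0.09, with a median of log2 -0.28. Of these, 17 were lower at an adjusted p below 0.05 and 0 higher, against 5.32% lower over all genes, and 27 were lower without both doubted arrays. Past both limits fell PIMREG, a regulator of chromosome segregation in mitosis, at 11.64, 11.62 and 11.77 in wild-type and 10.83 to 11.17 in the clones (log2 -0.66 ± 0.06, adjusted p = 5.75e-05), and KIF15, a spindle kinesin (log2 -0.59 ± 0.09). KIF15 lay below 1.5-fold without wild-type replicate 3, clone 7 replicate 1, clone 8 replicate 1 or clone 8 replicate 3, under quantile normalization and without both doubted arrays (log2 -0.56 at the smallest). The condensin gene SMC2 was at log2 -0.50 ± 0.06 and the cyclin gene CCNB1 at log2 -0.34 ± 0.06, both past the adjusted p alone. Mock differed from wild-type by a median of log2 0.06 on this list.

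Among DNA replication genes 32 of 34 lay below 0, and among those of homologous recombination, the repair of double-strand breaks by copying a sister strand, 14 of 16. Of the replication genes 0 were called and 7 were lower at an adjusted p below 0.05, against 5.32% over all genes, with a median of log2 -0.16, and MCM6, part of the replicative helicase, differed by log2 -0.43 ± 0.07. Of the recombination genes 1 fell (6.25%, against 0.673% over all genes). It was XRCC2, at 11.03, 10.99 and 11.07 in wild-type and 10.06 to 10.48 in the clones (log2 -0.70 ± 0.08, adjusted p = 0.000171). Their median was log2 -0.27. BRCA1, which acts in the same repair, was at log2 -0.27 ± 0.09 (adjusted p = 0.0782).

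Lipid synthesis genes moved in part. Of 19 genes of cholesterol synthesis 0 were called, 8 were lower at an adjusted p below 0.05, against 5.32% over all genes, and 0 higher, with a median of log2 -0.27. The acetyl-CoA acetyltransferase gene ACAT2 was at log2 -0.56 ± 0.09, just short of the fold limit, and FDPS, which makes farnesyl diphosphate, at log2 -0.48 ± 0.06. In fatty acid elongation the members went apart: ELOVL6 fell by log2 0.95 ± 0.10, from 11.17 to 11.22 in wild-type to 9.80 to 10.48 in the clones, while ELOVL7 rose by log2 0.82 ± 0.07. Of 14 genes in that list these were the 2 calls (14.3%, against 1.58% over all genes). Mock lay near wild-type for ELOVL6 (log2 -0.11) and near the clones for ELOVL7 (log2 0.64).

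**Figure D5:**
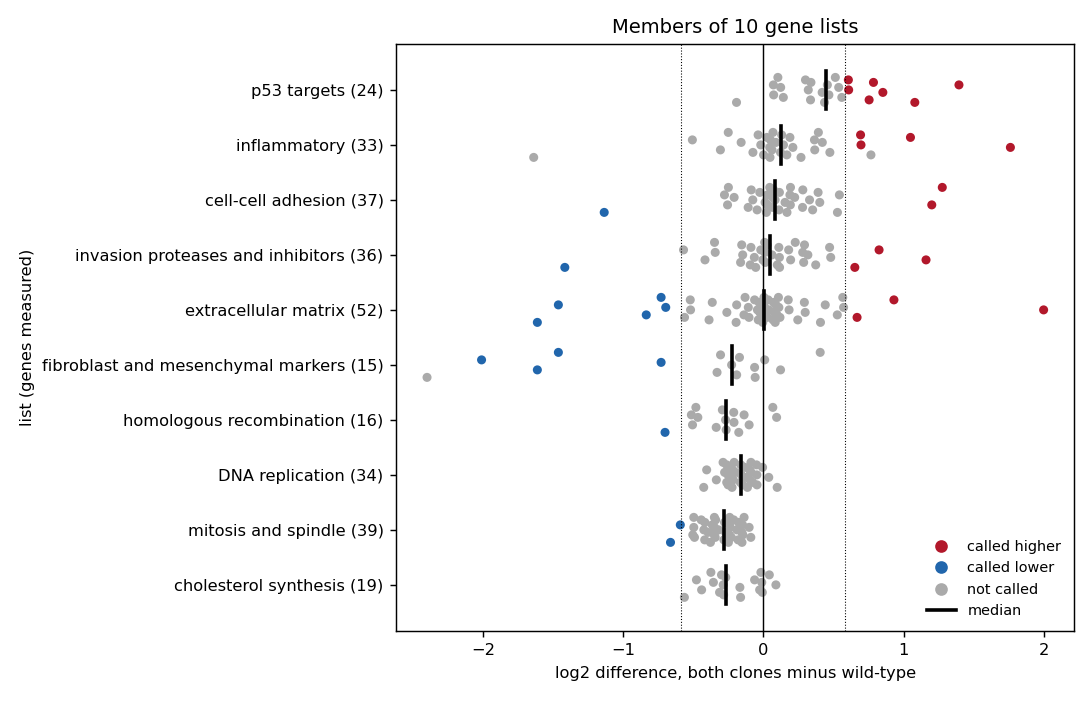
Log2 difference between both clones and wild-type (horizontal axis) for each measured member of 10 gene lists (rows, with the number of genes), with genes called higher in red, called lower in blue and not called in grey, the median as a black bar and dotted lines at 1.5-fold. The median of the p53 targets lies at log2 0.45, that of mitosis and spindle genes at log2 -0.28, and the matrix list holds calls on both sides.

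The extracellular matrix list held calls in both directions, 3 higher and 5 lower of 52 genes, against 0.907% and 0.673% over all genes. Its median was log2 0.01. Beside EFEMP1, VCAN, a large proteoglycan of glioma matrix, rose by log2 0.93 ± 0.13, and all its clone arrays (10.34 to 10.93) lay above wild-type (9.55 to 9.80). The fibrillar collagen genes COL3A1, COL1A2 and COL1A1 fell. COL3A1 was at 12.16, 12.18 and 12.11 in wild-type, at 11.28, 11.34 and 10.04 in clone 7 and at 10.11, 10.07 and 11.28 in clone 8 (log2 -1.46 ± 0.29, adjusted p = 0.00797). COL1A2, at 12.65 to 12.80 in wild-type, had the same 2 levels, 12.02 to 12.10 on 3 clone arrays and 10.04 to 10.21 on the others (log2 -1.61 ± 0.45, adjusted p = 0.0411). Its call was lost in 12 alternatives (adjusted p up to 0.151). Among them were the 9 clone and wild-type arrays alone, the trend with a robust prior, the line as a random block and the replicate block. The others were without any 1 of the wild-type or mock arrays and without clone 8 replicate 1 or 2. The call of COL1A2 held with both doubted arrays left out. COL1A1 fell by log2 0.73 ± 0.09 and FBN1, the main fibrillin of microfibrils, by log2 0.70 ± 0.08, with clone arrays at 9.50 to 9.97 and at 12.01 to 12.39. On FBN1 the doubted arrays again lay with the other clone. Of 15 fibroblast and mesenchymal markers, 4 fell (PRRX1, COL1A2, COL3A1 and COL1A1), against 0.673% over all genes, and 0 rose, with a median of log2 -0.23, and mock lay below wild-type on that list too, by a median of log2 -0.18.

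In the TGF-beta pathway a receptor gene and the gene of a transcription factor changed in opposite directions. The receptor gene TGFBR2 fell from 11.34, 11.41 and 11.25 to between 10.06 and 10.28 (log2 -1.11 ± 0.06, adjusted p = 9.77e-07). SMAD3, a transcription factor of the pathway, rose from 9.65, 9.91 and 9.95 to between 10.91 and 11.13 (log2 1.18 ± 0.07). These were the 2 calls among 32 genes of the pathway (6.25%, against 1.58% over all genes). In mock both genes lay beyond wild-type in the same direction, at log2 -0.75 and 1.10. TGFBI, a matrix protein induced by TGF-beta, rose by log2 0.85 ± 0.06.

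Among receptor tyrosine kinases 2 of 33 rose and 2 fell, against 0.907% and 0.673% over all genes. MET, the receptor of hepatocyte growth factor, was at 11.18, 11.34 and 11.42 in wild-type and at 12.26 to 12.50 in the clones (2.11-fold, log2 1.08 ± 0.07), and joined ROR1 on the higher side. Mock, at 12.25 to 12.31, was at the lower end of the clones. TEK, the angiopoietin receptor, was at 10.03, 10.13 and 10.20 in wild-type, at 9.52, 9.48 and 8.89 in clone 7 and at 8.75, 8.95 and 9.32 in clone 8 (log2 -0.97 ± 0.14), while mock stayed at 10.02 to 10.12. The ephrin receptor gene EPHA4 fell by log2 0.66 ± 0.12. EGFR, the receptor often amplified in glioblastoma, was at log2 -0.34 ± 0.09 and was not called. Of 24 genes of ERK output and feedback, the phosphatase DUSP10 rose (log2 1.05 ± 0.08), and the ETS factor ETV1 (log2 -0.77 ± 0.07) and EPHA4 fell. Most of that list went the other way from these 2 falls: 19 genes lay above 0, with a median of log2 0.14. At an adjusted p below 0.05, 8 were higher and 3 lower, against 4.63% and 5.32% over all genes.

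Genes of adhesion, invasion and development gave few calls each, to be set beside 1.58% called over all genes. In cell-cell adhesion 2 of 37 rose, CDH10 and CLDN1, and the protocadherin PCDH18 fell by log2 1.14 ± 0.20. Among 36 proteases and inhibitors of invasion, the membrane metalloproteinase MMP24 rose by log2 1.16 ± 0.07 and the inhibitor TFPI2 by log2 0.82 ± 0.09, both with mock on the same side (log2 0.73 and 0.72), and ADAMTS6 fell. ADAM12, the fourth call there (log2 0.65 ± 0.19, adjusted p = 0.0481), was lost in 15 of the alternatives (adjusted p up to 0.15). Of 22 Notch pathway genes 1 rose, HES1, a repressor that Notch induces (log2 1.07 ± 0.14), and mock lay as high (log2 1.18). In the Wnt list, WNT9A fell (log2 -0.63 ± 0.08, and -0.57 without clone 8 replicate 2), and LGR5 and WNT7B rose (log2 1.03 ± 0.25 and 0.70 ± 0.16). Both of these rises lost the call without any 1 wild-type array and in the fit of the 9 clone and wild-type arrays alone (adjusted p up to 0.115 and 0.0856). WNT7B lost it without clone 7 replicate 3 too. Among 22 glioma stem and lineage genes, the cytokine receptor gene LIFR rose by log2 1.04 ± 0.17, with mock higher still at log2 1.39, and CD24 rose by log2 1.08 ± 0.21, an uncertain value because the gene has near-identical copies. NES fell in that list, as did SOX2, a factor of neural stem cells, by log2 0.59 ± 0.08, which lay at the fold limit (log2 -0.55 at the smallest, without 1 of 5 arrays).

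Acute-phase and inflammatory genes rose where they were called, 4 of 33 with 0 lower, against 0.907% higher and 0.673% lower over all genes, and the list had a median of log2 0.12. CCL2, the lowest member (log2 -1.64), was called lower once both doubted arrays were left out, through clone 8 (log2 -3.45) and not clone 7 (log2 0.15). In that fit 5 members were called higher and 1 lower. SAA2, a serum amyloid protein of the acute phase, was at 8.54, 8.49 and 8.56 in wild-type, at 10.38, 10.39 and 10.40 in clone 7 and at 10.14, 10.20 and 10.27 in clone 8, and had the smallest adjusted p of all genes (3.39-fold, log2 1.76 ± 0.05, adjusted p = 3.86e-09). Its near-identical copy SAA1 rose by log2 1.05 ± 0.15 over 7.20 to 8.13 in wild-type, and the values of both are uncertain for that reason. Mock lay between wild-type and the clones for SAA2, at 9.63 to 9.79. The cytokine IL18 rose by log2 0.69 ± 0.10, with mock (9.39 to 9.55) near wild-type (9.45 to 9.78). The mitochondrial superoxide dismutase SOD2 was called at log2 0.70 ± 0.20 (adjusted p = 0.0433), a call lost in 14 alternatives (adjusted p up to 0.141). C3, the central complement protein, rose 3.58-fold, from 8.33, 8.17 and 8.36 to between 9.74 and 10.51 (log2 1.84 ± 0.17), and was the single call among 22 complement genes. Mock was at 9.90 to 10.08, inside the clone range.

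Other lists held 1 to 4 calls each, to be set beside 1.58% called over all genes. Of 24 targets of YAP and TEAD, which answer to stretch and cell density, 2 rose, the ankyrin repeat gene ANKRD1 (log2 1.17 ± 0.09, at 12.41 to 12.58 in wild-type and 13.44 to 13.85 in the clones) and the kinase NUAK2 (log2 0.68 ± 0.12). ANKRD1 rose among 24 contractile and actin genes too, with ACTA2, while XIRP2 and TMOD1, which caps actin filaments, fell (TMOD1 by log2 0.73 ± 0.09). Against wild-type, mock lay at log2 0.78 for ANKRD1, 0.55 for NUAK2 and -0.03 for TMOD1. Of 29 integrin genes and ligands, EDIL3 and TGFBI were the calls. Among 31 genes of neuronal adhesion and the growth cone, DCLK1, a microtubule-binding kinase, rose by log2 0.96 ± 0.17, and NLGN1 and DPYSL3 fell, DPYSL3 by log2 0.62 ± 0.14. The call of DPYSL3 was lost without any 1 wild-type array and without clone 7 replicate 3 or clone 8 replicate 1. It was lost with the 9 clone and wild-type arrays alone too (adjusted p up to 0.0852). The list of 47 ion channels and G-protein-coupled receptors, which also held the regulator RGS16, had 2 falls, CHRM3 and RGS16. The receptor gene MC4R, which fell too, was not on that list. Interferon-stimulated genes went both ways, with TRIM22 higher (log2 0.60 ± 0.07, and 0.56 without clone 8 replicate 2) and IFI44 lower (log2 -0.85 ± 0.12) out of 35. The transporter gene ABCC3, which exports drug conjugates, rose by log2 0.64 ± 0.12 (0.56 without clone 8 replicate 3) and the homeobox gene HOXB9 by log2 0.84 ± 0.17, as the single calls of 33 and 42 genes.

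The study had chosen 12 genes to set against hHSS1 in tumours, 10 of which were measured here, and 0 of the 10 were called. JAM2, a junctional adhesion molecule, was higher by log2 0.53 ± 0.07 (adjusted p = 0.000629), below 1.5-fold, with 10.24, 10.23 and 10.36 in wild-type and 10.65 to 10.93 in the clones. Its mock arrays lay at 9.26 to 9.36, far below both, so that the difference of the clones from mock was log2 1.48. The metalloproteinase ADAMTS1 was at log2 -0.52 ± 0.06 (adjusted p = 0.000373), and mock was at log2 -0.56. For THBS1, which encodes the angiogenesis inhibitor thrombospondin 1, the clone arrays fell at 11.34 to 12.83 around wild-type (12.26 to 12.35), split by the doubted arrays (log2 -0.16 ± 0.32, adjusted p = 0.791). The apelin gene APLN differed by log2 0.01 ± 0.06, and STAT3 by log2 0.06 ± 0.05. CCDC102B, a coiled-coil gene with the largest difference between the mock line and wild-type among those named here, was named after its values were seen: it was at 5.96 to 6.23 in wild-type, 6.24 to 6.58 in the clones and 9.64 to 10.08 in mock, and did not pass the test between the clones and wild-type (adjusted p = 0.0637).

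Small RNA genes also held calls. The array reads total RNA with probes inside each short gene. For microRNAs it thus reads the precursor or the host transcript together with any mature form, and does not measure mature microRNA by itself. RNA was isolated with the RNeasy minikit, and how evenly such short RNAs were recovered between plates was not measured. Of 173 microRNA genes 5 were called, 1 higher and 4 lower (2.89%). Their main mature sequences, from RefSeq on GRCh38.p14, are shown because the seed, bases 2 to 8 in capitals, sets which messages a microRNA pairs with. All 5 seeds differ. The genes were named after their values were seen.
hsa-miR-218-5p: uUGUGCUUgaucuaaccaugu
hsa-miR-21-5p: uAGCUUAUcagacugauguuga
hsa-miR-24-3p: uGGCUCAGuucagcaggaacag
hsa-let-7a-5p: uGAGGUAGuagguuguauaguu
hsa-miR-29a-3p: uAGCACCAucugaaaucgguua

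MIR218-1, on chromosome 4, had the largest difference of the 5 (log2 -1.29 ± 0.13, adjusted p = 0.000104), with 9.55, 9.91 and 9.66 in wild-type and 8.01 to 8.72 in the clones. It lies in an intron of SLIT2, an axon guidance ligand, which fell as well (log2 -0.67 ± 0.15, adjusted p = 0.013), from 12.43 to 12.51 to between 11.37 and 12.16. SLIT2 lost its call without wild-type replicate 2 or 3 or clone 7 replicate 3 (adjusted p up to 0.0671). Mock lay between wild-type and the clones for both, at log2 -0.83 and -0.36. MIR24-2 (log2 -0.74 ± 0.09) and MIR21 (log2 -0.70 ± 0.12, adjusted p = 0.00406) were lower, the latter at 11.30 to 11.71 in wild-type and 10.40 to 11.05 in the clones. MIR21 lost its call without wild-type replicate 2, as did MIRLET7A2 (log2 -0.64 ± 0.17) in 9 single alternatives and without both doubted arrays. MIR29A was the 1 gene called higher (log2 0.81 ± 0.19), at a level (4.97 to 6.72) below the lower quartile on each array. It lost its call without wild-type replicate 1 or 2 and in the fit of the 9 clone and wild-type arrays alone. Among the wild-type arrays, replicate 2 was the highest on MIR218-1, MIR21, MIR24-2 and MIRLET7A2, and replicate 3 on MIR29A. Of 20 small nuclear RNA genes, RNU4-1, RNU4-2 and RNU5F-1 were lower and 0 higher (15%). RNU5F-1 was below the lower quartile on each array (5.00 to 5.49 in wild-type and 4.31 to 4.71 in the clones), so that its level could not be told from background, and RNU4-1 and RNU4-2 are near-identical copies. Of 175 small nucleolar RNA genes 3 were higher and 3 lower (3.43%), the highest being SNORD116-21 (log2 1.20 ± 0.29). Its call was lost without wild-type replicate 1 or 2 and in the fit of the 9 clone and wild-type arrays alone (adjusted p up to 0.0889). The wild-type arrays of SNORD116-21, at 6.26 to 6.92, lay below the lower quartile, and its clone arrays, at 7.055 to 8.49, were split by the doubted arrays. Protein-coding genes had 160 higher and 111 lower of 16902 (1.60%).

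Calls lay on each of chromosomes 1 to 22 and on X. The share of genes called ran from 0.236% on chromosome 22 (1 of 423) to 2.67% on chromosome 3 (27 of 1011), beside 1.58% over all genes. Chromosomes 8, 14 and 20 had 8, 5 and 6 genes higher and 0 lower, and chromosome 4 had 4 higher and 13 lower. The median difference on a chromosome lay between log2 0.00 and 0.08. No test of these shares was made.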

How the data were processed

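The authors deposited normalized log2 levels, 1 per probe set and array. The submitters' processing notes name Partek, and no source used here gives the summary method. Of 33297 probe sets on 12 arrays, 19460 had 1 gene symbol, 1754 several and 12083 none. 18417 genes remained, with the probe set of highest mean kept for 769 genes that had more than 1. RefSeq (GRCh38.p14) gave chromosomes and gene types. Arrays have no read depth, so that precision is limited by their number.

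A model of 4 group means was fitted with limma 3.58.1 (lmFit, eBayes) in R 4.3.3, with data.table (version 1.17.8), and summarized with pandas 2.3.3 and numpy 2.4.6 in Python 3.11.15. The script was tested on simulated data. The main contrast was the mean of both clone means minus wild-type. Errors are SEs of differences. Alternatives were 9 arrays, quantile normalization, centring, a filter on dim probe sets, the mean of probe sets, a trend with a robust prior, group weights, the line as a random block, the replicate block, each array left out, and 1.3-fold with an unadjusted p under 0.001. Fits without both clone replicate 3 arrays and with the clones as 1 group were added after seeing the data.

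Named were EMC10, the 15 largest rises and 15 largest falls called in both clones and in each, up to 4 called members of each of 46 gene lists (or the member of smallest adjusted p), and the study's 12 tumour genes, leaving out chromosome Y, XIST, unnamed loci and small RNAs unless said. Members and lists were chosen with earlier results of these data known, and so were the limits. The 46 lists covered pathways and cell type markers. Those with 0 calls and not described above were glycolysis and hypoxia, oxidative phosphorylation, factors that restrain angiogenesis, antigen presentation, metallothioneins, immediate-early genes and cancer-testis genes.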

Additional observations from a re-analysis of the deposited data

Results flagged for a closer look

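Signal appeared in data outside the comparison of named genes. Of 13837 probe sets with no gene symbol or several, 196 passed the same limits between both clones and wild-type (1.42%), 26 higher and 170 lower. In the mock line against wild-type 3 of them passed. These probe sets were fitted by themselves, and they are unnamed here.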

How the results depend on the processing

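The count of genes called between the clones and wild-type lay between 250 and 316 under the other normalizations, filters, priors, weights and blocks, between 228 and 342 with 1 array left out, at 347 without both clone replicate 3 arrays (346 with the mock arrays also left out), at 287 with the clones as 1 group, and at 585 with 1.3-fold and an unadjusted p under 0.001. The last limits gave 480 genes for clone 7, 623 for clone 8 and 0 between the clones. With 1 array left out clone 7 had 183 to 388 calls and clone 8 had 216 to 489. Without both clone replicate 3 arrays clone 7 had 489 (484 without mock), clone 8 had 554 (547) and clone 8 against clone 7 had 617 (606). The share called higher for clone 8 was 46.1%, and 61.5% without clone 8 replicate 1 and 33.4% without clone 8 replicate 2. For hHSS1 the difference stayed between log2 1.03 and 1.38 with adjusted p from 0.000178 to 0.0122. The replicate block gave 260 calls against 291 for the clones, 218 for clone 7, 263 for clone 8 and 0 between the clones. Of 18 same-number pairs, 4 had deviations from their group means that correlated above 0.1 (r from -0.832 to 0.446). These were wild-type with clone 7 (r = 0.101 and 0.192) and with clone 8 (r = 0.446 and 0.229) at replicates 1 and 2. Deviations within a clone rest on the doubted labels, so whether the numbers pair the samples stayed undecided. The sign turned for 2 genes that were not called: APLN lay between log2 -0.014 and 0.043 with 1 array left out (below 0 without wild-type, clone 7 or clone 8 replicate 3) and at log2 -0.023 without both clone replicate 3 arrays, with or without mock, and THBS1 between log2 -0.39 and 0.06 (above 0 without clone 7 replicate 3). Of the called genes that the text's rules name other than EMC10, 20 of 91 lost the call in at least 1 alternative other than those added later and 71 in none. The causes were not tested. Where every array of a gene lies below the lower quartile, neither the size nor the direction of its difference is secured.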
